A study of Komagataella pastoris with 60 samples.

Results

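The alcohol oxidase genes AOX1 (Pipas_chr4_0821) and AOX2 (Pipas_chr4_0152) of *Komagataella pastoris* were examined in total mRNA and in ribosome-bound mRNA of a wild type and 4 ribosomal protein deletion strains. They were found by these gene IDs in the count tables of all 60 libraries, and they are 2 of the 5319 host genes listed. The level of a gene is given as CPM, its reads per 1000000 host gene reads of the same library. Both genes were detected in every library, with at least 1481 AOX1 reads and at least 184 AOX2 reads.

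Alcohol oxidase carries out the first step of methanol use in this yeast. In the peroxisome it oxidises methanol to formaldehyde and hydrogen peroxide, and the formaldehyde is then either assimilated or oxidised further. AOX1 supplies most of the enzyme and AOX2, a close paralog, the rest. Both promoters are repressed by glucose and glycerol and induced by methanol, and the AOX1 promoter is the usual means of driving a foreign gene in this host. Here that foreign gene was Phy, a phytase of *Citrobacter amalonaticus*, placed behind the AOX1 promoter of the plasmid pPICZαA and integrated as a single copy. AOX1, AOX2 and Phy in the same library are therefore readouts of the same inducer.

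All groups were cultures of strain GS115 carrying Phy and grown on methanol in the medium BMMY. The wild type (wt) was compared with *rpl38*∆ and *rpl9a*∆, which lack a protein of the large ribosomal subunit, and with *rps7*∆ and *rps25*∆, which lack a protein of the small subunit. Each strain was sampled at 24, 48 and 72 h of fermentation with 2 biological replicates, from which total polyA+ mRNA (mRNA) and polyA+ mRNA bound in ribosome–nascent chain complexes (RNC-mRNA) were sequenced. RNC-mRNA was pelleted after cycloheximide treatment and stands for the messages engaged by ribosomes. In these bulk cultures, fewer induced cells and less message per induced cell cannot be told apart. Methanol was fed every 24 h, and the samples were taken before the feed. The methanol left at sampling was not reported, and the study states that the deletion strains grew much slower after 24 h. Whether the remaining methanol differed between strains or times was not tested.

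Host gene reads ranged from 2970406 to 15476958 per mRNA library and from 1508702 to 13532265 per RNC-mRNA library. The deleted gene was lower in all 6 libraries of its own strain than in the 24 libraries of the other strains, in both assays of each deletion strain. RNC-mRNA libraries were checked against the mRNA of their own group by the correlation over genes of their deviations from the assay mean. Each RNC-mRNA library gave 1 value with each of the 2 mRNA libraries, and in 29 of 30 libraries the higher of them was at least 0.595. The exception was *rpl9a*∆ RNC-mRNA at 72 h, replicate 2, where it was -0.386. That library correlated best with the 48 h mRNA of its own strain (0.426), so that its values below are those of the library labelled 72 h. Whether the label holds was not tested. The lower of the 2 values was 0.336 and 0.0568 in the RNC-mRNA libraries of *rpl9a*∆ at 48 h. By group mean, both *rpl38*∆ RNC-mRNA libraries at 72 h correlated best with the 72 h mRNA of *rpl9a*∆ (0.887 and 0.729), not of *rpl38*∆. Their higher values with the mRNA libraries of their own group were 0.874 and 0.702. The 2 RNC-mRNA replicates of *rpl38*∆ at 72 h and the 2 mRNA replicates of *rpl9a*∆ at 48 h also lay apart in the genes described here. Results that moved most without 1 of these libraries are given in both ways.

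AOX1 and AOX2 are listed with the same length, 1991 bp, so that their reads can be compared directly on a per-length scale. Reads that match both paralogs could have been assigned to either, and the sources used here do not name the counting tool. The lowest AOX2 value in any library was 0.779 AOX2 reads per 100 AOX1 reads, in wt RNC-mRNA at 72 h. A constant share of AOX1 reads counted on AOX2 therefore cannot have exceeded that value, and at that value AOX2 in wt mRNA (1.90 to 2.48 reads per 100 AOX1 reads) would hold a sizeable part of such reads. The reverse, AOX2 reads counted on AOX1, has no such bound.

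In wt, AOX1 was among the most abundant messages at every time. AOX1 mRNA was 8408 and 9895 CPM at 24 h, 13004 and 12458 CPM at 48 h, and 10446 and 10547 CPM at 72 h. It ranked between places 52 and 77 of all host genes by reads per length. AOX2 mRNA was 198 and 220 CPM at 24 h, 306 and 309 CPM at 48 h, and 198 and 214 CPM at 72 h, ranking between 1149 and 1753. Both genes were thus highest at 48 h. AOX2 mRNA rose by 0.46 ± 0.12 on the log2 scale from 24 to 48 h (adjusted p = 0.00806) and was -0.66 ± 0.12 from 48 to 72 h (7.1e-04; edgeR, Benjamini-Hochberg), where 21.8% and 16.5% of all genes were called. The rise was lost without wt replicate 1 at 24 h (0.394, adjusted p = 0.0893) or replicate 2 at 48 h (0.443, adjusted p = 0.0629). AOX1 was 0.37 ± 0.20 (adjusted p = 0.188) and -0.36 ± 0.20 (0.222, edgeR) for the same steps. Both passed without either *rpl9a*∆ library at 48 h, which share the fit. With library size alone the AOX1 rise from 24 to 48 h was called (0.475, adjusted p = 0.0453, edgeR). Between 72 and 24 h neither gene passed the test in wt (AOX1 log2 fold change 0.01 ± 0.20 SE, adjusted p = 0.976; AOX2 -0.21 ± 0.12, adjusted p = 0.191; edgeR quasi-likelihood test with Benjamini-Hochberg adjustment), where 29.8% of the 5229 genes tested were called. A call here and below is an adjusted p under 0.05 in that test, over all genes tested.

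In the ribosome-bound messages of wt, both genes had their highest mean at 48 h, but no step in time passed the test. AOX1 RNC-mRNA was 6238 and 7023 CPM at 24 h, 9636 and 8016 CPM at 48 h, and 7654 and 8834 CPM at 72 h. AOX2 RNC-mRNA was 130 and 114 CPM at 24 h, 208 and 155 CPM at 48 h, and 72.5 and 68.8 CPM at 72 h. The 72 h libraries were the lowest of the 6 for AOX2 but not for AOX1. From 24 to 48 h the log2 fold change was 0.27 for AOX1 (adjusted p = 0.877) and 0.44 for AOX2 (0.81, edgeR, Benjamini-Hochberg). From 48 to 72 h it was -0.04 (0.975) and -1.31 (0.125). The last AOX2 value was called when either of 2 of the 30 libraries was left out (lowest adjusted p = 0.00349, edgeR).

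**Figure D1:**
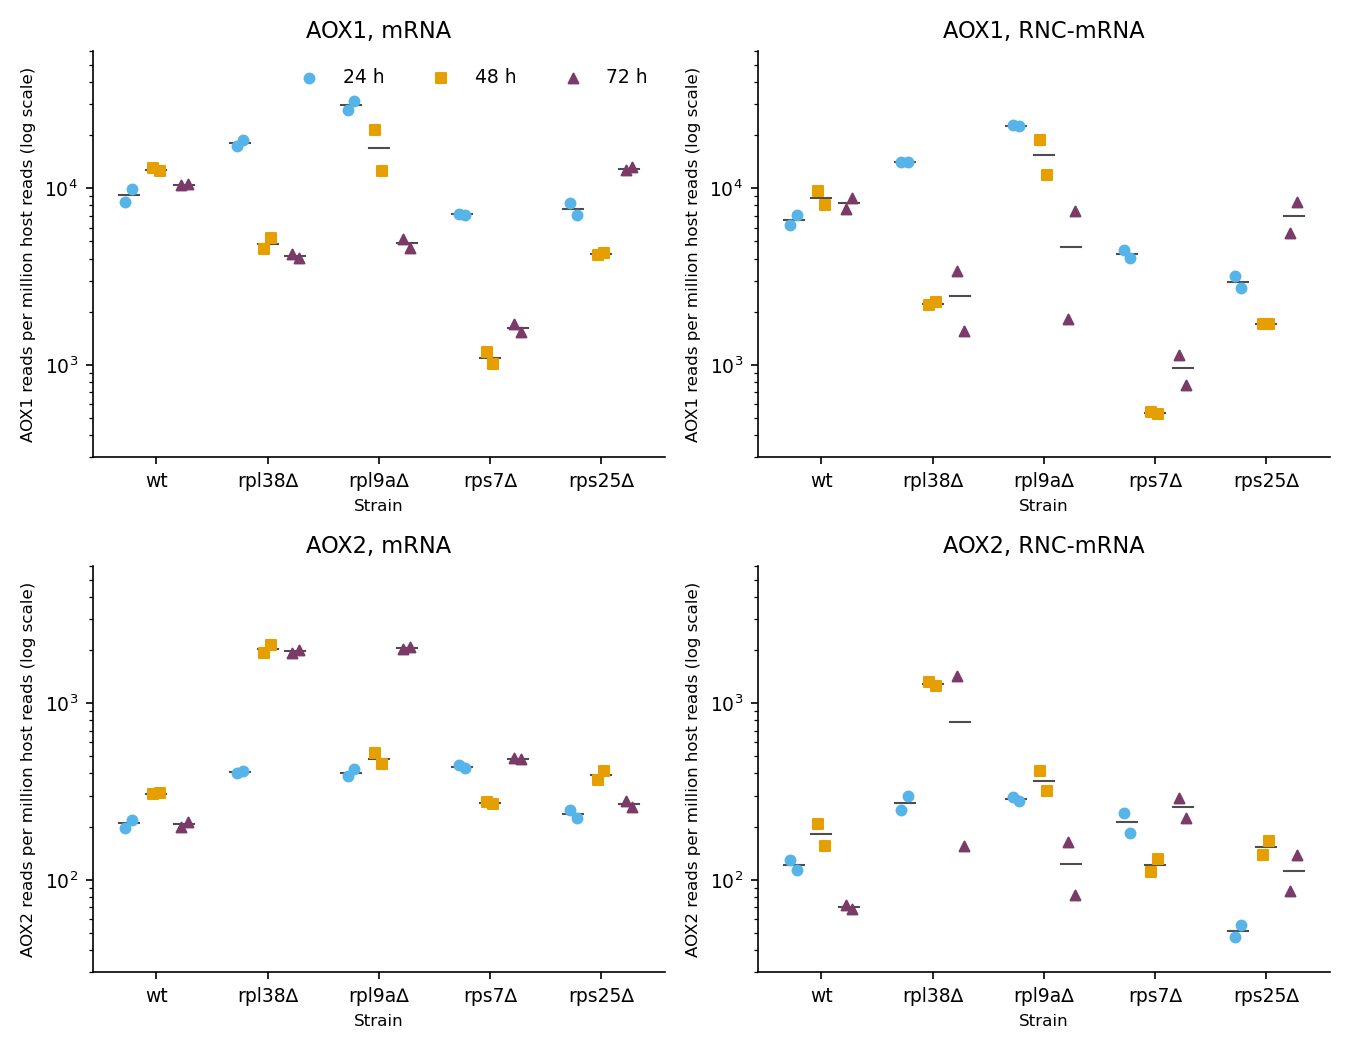
CPM (log scale) of AOX1 (upper panels) and AOX2 (lower panels) in mRNA (left) and RNC-mRNA (right), for each strain at 24 h (circles), 48 h (squares) and 72 h (triangles). Each point is a library and each line the mean of 2; in *rpl38*∆ mRNA, AOX1 drops from 17321 and 18876 at 24 h to between 4050 and 5219 later, while AOX2 goes from 401 and 416 to between 1915 and 2140.

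In *rpl38*∆ the 2 genes moved in opposite directions with time. AOX1 mRNA was 17321 and 18876 CPM at 24 h, 4506 and 5219 CPM at 48 h, and 4235 and 4050 CPM at 72 h. AOX2 mRNA was 401 and 416 CPM at 24 h, 1915 and 2140 CPM at 48 h, and 1932 and 2000 CPM at 72 h. From 24 h onward the AOX1 mean was 3.72-fold lower at 48 h and 4.37-fold lower at 72 h, and the AOX2 mean was 4.97-fold and 4.82-fold higher, with no overlap between the 24 h and the later libraries for either gene. Against wt, AOX1 was higher at 24 h (log2 fold change 1.097 ± 0.20, adjusted p = 1.1e-04), and lower at 48 h (-1.55 ± 0.20, adjusted p = 1.2e-06) and 72 h (-1.42 ± 0.20, adjusted p = 3.2e-06; edgeR, Benjamini-Hochberg). AOX2 was higher at all 3 times, by 1.08 ± 0.12, 2.56 ± 0.12 and 3.18 ± 0.12 on the log2 scale, with adjusted p of 1.4e-07 or lower. Both genes were thus called at each time, where 49.0%, 61.1% and 64.5% of all genes were called at 24, 48 and 72 h.

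A similar reversal was seen in *rpl9a*∆, but with the AOX2 rise a sampling time later. Its AOX1 mRNA was 27780 and 31347 CPM at 24 h, 21297 and 12519 CPM at 48 h, and 5142 and 4615 CPM at 72 h. Replicate 2 at 24 h had the highest AOX1 level of all libraries, 3.13% of its host reads, and ranked 21 per length. AOX2 mRNA of this strain was 385 and 424 CPM at 24 h, 521 and 450 CPM at 48 h, and 2019 and 2067 CPM at 72 h. AOX2 was hence still low at 48 h, when it had already risen in *rpl38*∆. AOX1 had fallen by 48 h against 24 h (-1.26 ± 0.20, adjusted p = 2.1e-05, edgeR, Benjamini-Hochberg), with values of -1.80 to -0.866 on leaving out 1 library. Against wt, AOX1 was higher at 24 h (1.997 ± 0.21, adjusted p = 1.1e-07), did not pass at 48 h (0.37 ± 0.20, adjusted p = 0.142) and was lower at 72 h (-1.08 ± 0.20, adjusted p = 7.8e-05; edgeR, Benjamini-Hochberg). The 48 h value rests on which replicate is taken, since it was -0.185 without replicate 1 (adjusted p = 0.223) and 0.745 without replicate 2 (adjusted p = 6.3e-06). AOX2 was higher than in wt by 1.26 ± 0.12 at 24 h, 0.60 ± 0.11 at 48 h and 3.33 ± 0.13 at 72 h (adjusted p of 2.7e-04 or lower). In this strain 49.0%, 41.7% and 65.6% of all genes were called at 24, 48 and 72 h.

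In *rps7*∆ AOX1 reached its lowest levels. AOX1 mRNA was 7194 and 7065 CPM at 24 h, 1185 and 1010 CPM at 48 h, and 1704 and 1544 CPM at 72 h. The 48 h libraries ranked 301 and 385 per length, the lowest places of AOX1 in any mRNA library, and their mean was 11.6-fold below that of wt. AOX2 mRNA was 444 and 429 CPM at 24 h, 277 and 269 CPM at 48 h, and 486.8 and 486 CPM at 72 h. AOX2 was therefore at least as high as in wt at 24 and 72 h, and below wt at 48 h by CPM. AOX1 was lower than in wt by the edgeR test at 24 h (-0.61 ± 0.20, adjusted p = 0.0118), 48 h (-4.25 ± 0.23, adjusted p = 1.5e-12) and 72 h (-3.17 ± 0.21, adjusted p = 5.8e-11; Benjamini-Hochberg). AOX2 was higher at 24 h (0.82 ± 0.12) and 72 h (0.77 ± 0.12) and lower at 48 h (-0.88 ± 0.12), with adjusted p of 6.9e-06 or lower. The AOX1 call at 24 h was lost without wt replicate 2 (-0.496, adjusted p = 0.0882) and without *rps7*∆ replicate 2 (-0.588, adjusted p = 0.0597). Of all genes, 63.0%, 66.9% and 66.7% were called at 24, 48 and 72 h.

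The size of the *rps7*∆ values depends on scaling. The main test used TMM, which scales libraries so that most genes do not differ. With library size alone, the median log2 fold change of all genes in *rps7*∆ against wt moved from 0.05 to 0.77 at 48 h. On that scale AOX1 at 48 h was -3.53, still called, but AOX2 at 48 h was -0.17 and was no longer called (adjusted p = 0.128), nor was AOX1 at 24 h (-0.36, adjusted p = 0.0634). Over the 12 mRNA comparisons of a deletion strain with wt at 1 time, the shift of the median lay between -0.34 and 0.72, and over the 12 RNC-mRNA comparisons between -0.19 and 1.14. A ratio of 2 genes within a library, used below, is free of this choice.

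The course of AOX1 in *rps25*∆ was unlike that of the other deletion strains. AOX1 mRNA was 8220 and 7031 CPM at 24 h, 4185 and 4302 CPM at 48 h, and 12637 and 13177 CPM at 72 h. The gene thus dipped at 48 h and ended above its starting level. AOX2 mRNA was 248 and 223 CPM at 24 h, 368 and 416 CPM at 48 h, and 279 and 257 CPM at 72 h, the highest at the time when AOX1 was lowest. Against wt, AOX1 was lower at 24 h (-0.58 ± 0.20, adjusted p = 0.0157) and 48 h (-1.79 ± 0.20, adjusted p = 3.3e-07) and did not pass at 72 h (0.20 ± 0.20, adjusted p = 0.411; edgeR, Benjamini-Hochberg). The 24 h value was not called with library size alone (-0.27, adjusted p = 0.160), nor without wt replicate 2 (-0.476, adjusted p = 0.108) or *rps25*∆ replicate 2 (-0.462, adjusted p = 0.134). AOX2 was within 0.285 of wt on the log2 scale at every time, with adjusted p of 0.281, 0.3003 and 0.0479, and the last was lost when any of 19 of the 30 libraries was left out. With library size alone the 48 h value was called (0.348, adjusted p = 0.00617). Of all genes, 58.3%, 53.2% and 50.5% were called at 24, 48 and 72 h.

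**Figure D2:**
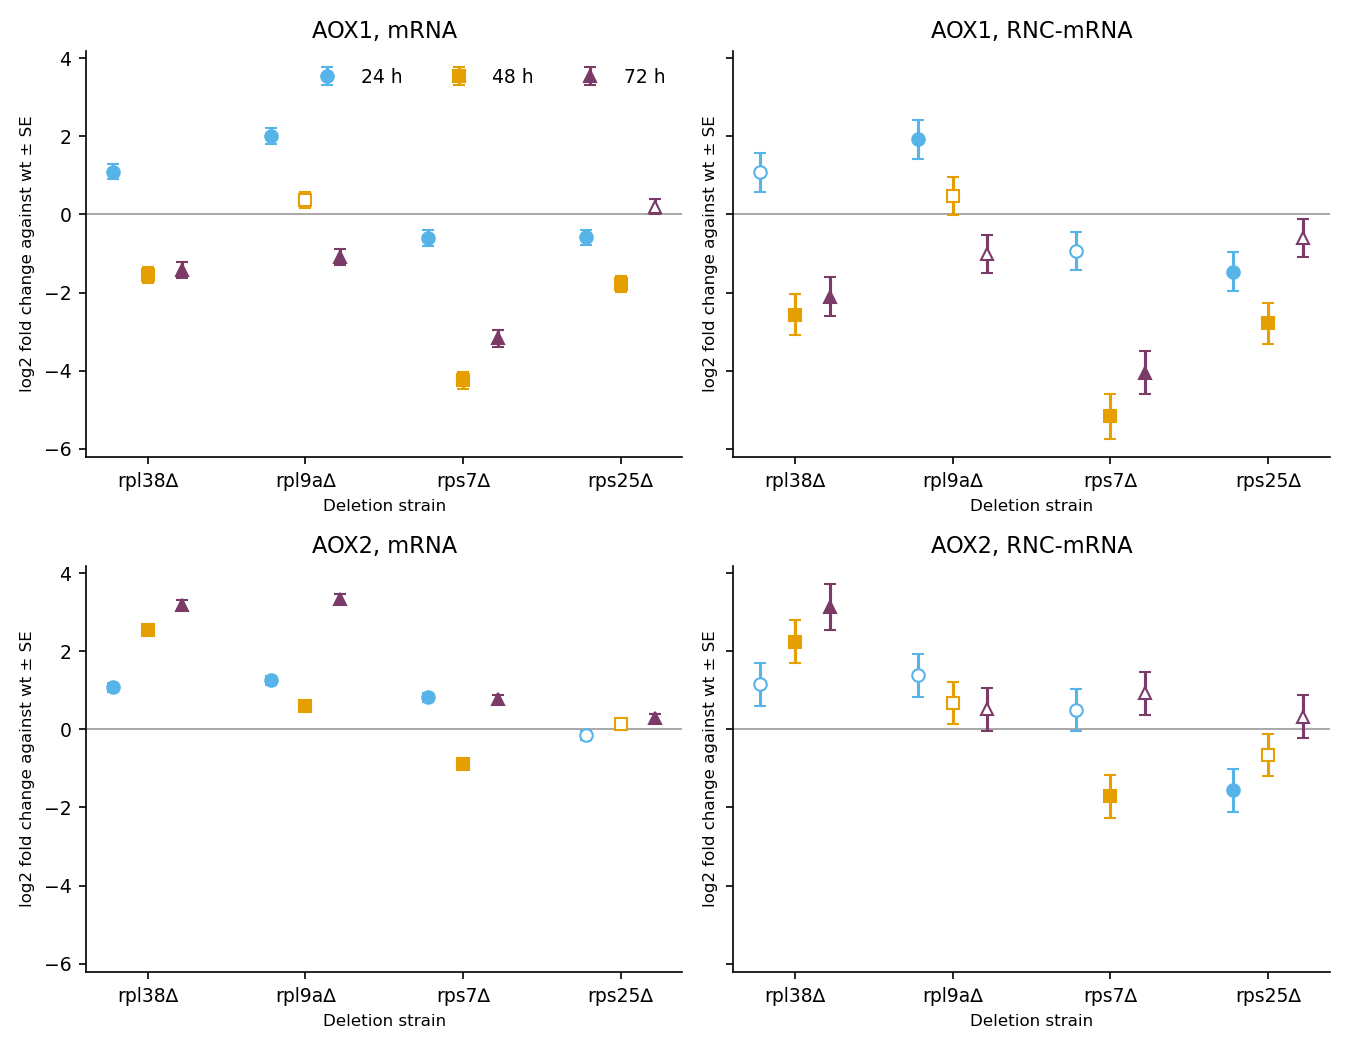
Log2 fold change of AOX1 (upper panels) and AOX2 (lower panels) against wt at the same time, with its standard error, in mRNA (left) and RNC-mRNA (right), from the edgeR fit with TMM scaling at 24 h (circles), 48 h (squares) and 72 h (triangles). Filled symbols have an adjusted p under 0.05; AOX1 mRNA runs from 1.997 in *rpl9a*∆ at 24 h to -4.25 in *rps7*∆ at 48 h, and AOX2 mRNA reaches 3.18 and 3.33 in *rpl38*∆ and *rpl9a*∆ at 72 h.

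Averages over the 3 times join these courses into a single value. For mRNA, AOX1 averaged -0.63 ± 0.11 in *rpl38*∆ (adjusted p = 5.4e-05), 0.43 ± 0.11 in *rpl9a*∆ (0.00298), -2.67 ± 0.12 in *rps7*∆ (2.9e-14), with -0.72 ± 0.11 in *rps25*∆ (1.1e-05) against wt, by edgeR with Benjamini-Hochberg adjusted p in parentheses. In *rpl38*∆ and *rpl9a*∆ this average hides a rise at 24 h and a fall at 72 h, and without the 72 h libraries AOX1 in *rpl38*∆ was -0.24 (adjusted p = 0.223). The *rpl9a*∆ average was 0.243 (adjusted p = 0.00117) without replicate 1 at 48 h and 0.546 (7.1e-09) without replicate 2. AOX2 averaged 2.27 ± 0.07 in *rpl38*∆ (9.4e-17), 1.73 ± 0.07 in *rpl9a*∆ (1.6e-14), 0.23 ± 0.07 in *rps7*∆ (0.00312), with 0.09 ± 0.07 in *rps25*∆ (0.217). The small *rps7*∆ value turned to -0.05 without the 72 h libraries (adjusted p = 0.645). The share of all genes called on average was 71.7%, 59.6%, 77.9% and 67.3% in the same order of strains.

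Within each strain the change from 24 to 72 h was tested on its own. AOX1 mRNA fell by 2.50 ± 0.21 on the log2 scale in *rpl38*∆ (adjusted p = 1.5e-09), by 3.07 ± 0.21 in *rpl9a*∆ (5.8e-11) and by 2.55 ± 0.21 in *rps7*∆ (1.3e-09), and rose by 0.80 ± 0.20 in *rps25*∆ (0.0026; edgeR, Benjamini-Hochberg). AOX2 mRNA rose by 1.89 ± 0.12 in *rpl38*∆ (1.9e-11) and by 1.87 ± 0.12 in *rpl9a*∆ (1.3e-11), while it was -0.26 ± 0.11 in *rps7*∆ (0.0554), with 0.23 ± 0.12 in *rps25*∆ (0.120). In these strains 70.3%, 76.4%, 60.1% and 44.0% of all genes were called between 72 and 24 h. Averaged over the 5 strains, AOX1 fell by 1.46 ± 0.09 (4.2e-12) and AOX2 rose by 0.70 ± 0.05 (7.5e-11), where 79.4% of genes were called.

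The change from 24 to 72 h differed from that of wt in most strains, by a test of the difference itself. For AOX1 mRNA the difference was -2.52 ± 0.28 in *rpl38*∆ (adjusted p = 2.9e-07), -3.08 ± 0.29 in *rpl9a*∆ (1.3e-08), -2.56 ± 0.28 in *rps7*∆ (2.3e-07), with 0.79 ± 0.28 in *rps25*∆ (0.02995; edgeR, Benjamini-Hochberg). For AOX2 mRNA it was 2.10 ± 0.16 in *rpl38*∆ (1.5e-09), 2.07 ± 0.16 in *rpl9a*∆ (1.3e-09), -0.05 ± 0.16 in *rps7*∆ (0.807), with 0.43 ± 0.16 in *rps25*∆ (0.0412). These *rps25*∆ values were lost when any of 6 (AOX1) or 7 (AOX2) of the 30 libraries was left out, and both fell short of the threshold with library size alone (0.56, adjusted p = 0.0685, for AOX1 and 0.20, adjusted p = 0.282, for AOX2). Of all genes, 54.7%, 65.1%, 49.0% and 39.6% were called for this difference in *rpl38*∆, *rpl9a*∆, *rps7*∆ and *rps25*∆.

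Ribosome-bound AOX1 was high at 24 h and low later in *rpl38*∆ and *rps7*∆, and lowest at 48 h in *rps25*∆, as the total message was. AOX1 RNC-mRNA of *rpl38*∆ was 14007 and 14155 CPM at 24 h, 2178 and 2273 CPM at 48 h, and 3392 and 1553 CPM at 72 h. In *rpl9a*∆ it was 22836 and 22442 CPM at 24 h, 18725 and 11935 CPM at 48 h, and 1815 and 7472 CPM at 72 h. The last value belongs to the library that stood apart from its own mRNA, and it lies above the other 72 h libraries of *rpl38*∆, *rpl9a*∆ and *rps7*∆. In *rps7*∆ the gene was at 4461 and 4018 CPM, then at 545 and 530 CPM, then at 1145 and 774 CPM. In *rps25*∆ it was at 3196 and 2730 CPM, then at 1710 and 1701 CPM, then at 5568 and 8355 CPM. The biological coefficient of variation of AOX1 was 32.9% in RNC-mRNA and 13.8% in mRNA, and that of AOX2 was 37.0% and 8.69%, so that differences of the same size passed the test less readily in RNC-mRNA.

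Against wt, AOX1 RNC-mRNA of *rpl38*∆ was 1.08 ± 0.49 at 24 h (adjusted p = 0.114), -2.56 ± 0.52 at 48 h (4.4e-04) and -2.10 ± 0.51 at 72 h (0.00227) on the log2 scale, by edgeR with Benjamini-Hochberg adjustment. The 72 h value was -2.87 without replicate 1 (adjusted p = 0.0043) and -1.63 without replicate 2 (0.0362). *rpl9a*∆ gave 1.92 ± 0.50 (0.0107), 0.47 ± 0.49 (0.552) and -1.01 ± 0.49 (0.175), and the 72 h value was -2.56 (adjusted p = 1.3e-04) without the library that stood apart. *rps7*∆ gave -0.94 ± 0.49 (0.134), -5.17 ± 0.58 (6.1e-07) and -4.05 ± 0.55 (5.1e-06). *rps25*∆ gave -1.47 ± 0.50 (0.0315), -2.79 ± 0.52 (5.4e-04) and -0.60 ± 0.49 (0.384). The 24 h calls of *rpl9a*∆ and *rps25*∆ were lost without either wt replicate at 24 h, the former also without *rpl9a*∆ replicate 1 and the latter also without either *rps25*∆ replicate, with values of 1.83 to 2.02 and -1.65 to -1.31. In fits of the 2 strains only, the 24 h values of *rpl38*∆ (1.11, adjusted p = 0.012) and *rps7*∆ (-0.913, 9.69e-04, edgeR) were called. The 72 h value of *rps25*∆ was called as well (-0.645, 0.0057), and the 24 h call of *rpl9a*∆ was lost (1.95, 0.102, edgeR). AOX1 was hence lower than in wt at 48 h in *rpl38*∆, *rps7*∆ and *rps25*∆, as it was in mRNA. At 24, 48 and 72 h the share of the 5210 genes called was 25.2%, 46.3% and 45.9% in *rpl38*∆, 17.9%, 16.2% and 14.2% in *rpl9a*∆, 39.0%, 45.0% and 47.4% in *rps7*∆, and 28.2%, 27.3% and 28.6% in *rps25*∆.

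Ribosome-bound AOX2 of *rpl38*∆ was 248 and 298 CPM at 24 h and 1314 and 1256 CPM at 48 h, a rise like that of the total message. At 72 h it was 1420 CPM in replicate 1 and 155 CPM in replicate 2, although the mRNA libraries of that group held 1932 and 2000 CPM. AOX2 was higher than in wt at 48 h (2.25 ± 0.56, adjusted p = 0.00275) and at 72 h (3.13 ± 0.59, adjusted p = 2.8e-04; edgeR, Benjamini-Hochberg). The 72 h value rested on replicate 1, without which it was 0.68 (adjusted p = 0.130). At 24 h AOX2 was 1.15 ± 0.54 from wt (adjusted p = 0.127, edgeR). Without replicate 1 or replicate 2 at 72 h, which share the fit, the 24 h value was 1.17 or 1.15 and was called.

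In *rpl9a*∆ the late AOX2 rise of the total message was not seen in RNC-mRNA. AOX2 RNC-mRNA was 293 and 280 CPM at 24 h, 411.5 and 317 CPM at 48 h, and 163 and 82.3 CPM at 72 h, against 2019 and 2067 CPM in mRNA at 72 h. Both 72 h libraries were low, including replicate 1, whose correlation with the mRNA of its own group was 0.737. Between 24 and 72 h AOX2 RNC-mRNA fell by 1.74 ± 0.55 on the log2 scale in *rpl9a*∆ (adjusted p = 0.0163, edgeR, Benjamini-Hochberg), where 40.2% of genes were called, while AOX2 mRNA had risen by 1.87. The fall was -1.42 without the library that stood apart (adjusted p = 0.0667) and -1.68 without replicate 1 at 24 h (adjusted p = 0.0652). It was also not called with library size alone (-1.18, adjusted p = 0.064). With TMM scaling and all libraries, none of the 3 times passed the test against wt. The values were 1.38 ± 0.55 (adjusted p = 0.0845), 0.68 ± 0.54 (0.430) and 0.52 ± 0.55 (0.573, edgeR, Benjamini-Hochberg). The 24 h value was called with DESeq2 (1.44, adjusted p = 0.0374) and in the fit of the 2 strains only (1.41, adjusted p = 0.0228, edgeR). It was also called, at 1.38, without either *rpl9a*∆ library at 72 h, which share the fit.

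AOX2 RNC-mRNA in *rps7*∆ was 239 and 185 CPM at 24 h, 110 and 132 CPM at 48 h, and 292 and 223 CPM at 72 h. By the edgeR test with Benjamini-Hochberg adjustment it was -1.71 ± 0.56 from wt at 48 h (adjusted p = 0.0164), a call that was lost with library size alone (-0.58, adjusted p = 0.312) and without wt replicate 1 or either *rps7*∆ replicate at 48 h (-1.92 to -1.48), and 0.50 ± 0.54 and 0.92 ± 0.55 at 24 and 72 h (adjusted p = 0.490 and 0.171). With library size alone the 72 h value was 1.87 and was called (adjusted p = 0.00427). In the fit of the 2 strains only, the 24 h value (0.527, adjusted p = 0.0134) and the 72 h value (0.937, 1.1e-04, edgeR) were called. In *rps25*∆ it was 47.4 and 55.8 CPM at 24 h, 139 and 167 CPM at 48 h, and 86.2 and 138 CPM at 72 h. The 24 h libraries were the lowest AOX2 values in the series and were -1.56 ± 0.55 from wt (adjusted p = 0.0395), while 48 and 72 h gave -0.66 ± 0.54 and 0.32 ± 0.55 (adjusted p = 0.388 and 0.701). The 24 h call was lost with library size alone (-1.25, adjusted p = 0.0737), and without any of the 4 wt and *rps25*∆ libraries at 24 h (-1.65 to -1.46). The 48 h value of *rps25*∆ was called in the fit of the 2 strains only (-0.694, adjusted p = 0.00342, edgeR).

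Averaged over the times, AOX1 RNC-mRNA was -1.19 ± 0.28 from wt in *rpl38*∆ (adjusted p = 0.00139), 0.46 ± 0.28 in *rpl9a*∆ (0.241), -3.39 ± 0.31 in *rps7*∆ (9.4e-09), with -1.62 ± 0.29 in *rps25*∆ (1.4e-04; edgeR, Benjamini-Hochberg). AOX2 RNC-mRNA was 2.18 ± 0.32 in *rpl38*∆ (1.2e-05), 0.86 ± 0.31 in *rpl9a*∆ (0.0487), -0.10 ± 0.31 in *rps7*∆ (0.799), with -0.63 ± 0.32 in *rps25*∆ (0.107). The AOX1 value of *rpl9a*∆ was 0.705 and was called (adjusted p = 0.00812) without replicate 1 at 72 h, -0.0548 (0.858) without replicate 2, the library that stood apart, and 1.19 (8.5e-06) over 24 and 48 h alone. The AOX2 call in *rpl9a*∆ was lost when any of 26 of the 30 libraries was left out, and the *rpl38*∆ value was 1.35 without replicate 1 at 72 h, still called (adjusted p = 2.9e-06). AOX2 in *rps25*∆ was called without either *rpl38*∆ library at 72 h (-0.679, adjusted p = 0.00178, and -0.633, adjusted p = 0.00314). The shares of all genes called were 55.3%, 26.3%, 61.6% and 44.2%.

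The fall of ribosome-bound AOX1 from 24 to 72 h also differed from wt. The difference was -3.18 ± 0.70 in *rpl38*∆ (adjusted p = 0.00196), -2.93 ± 0.70 in *rpl9a*∆ (0.00687), -3.11 ± 0.70 in *rps7*∆ (0.00185), with 0.87 ± 0.69 in *rps25*∆ (0.434; edgeR, Benjamini-Hochberg). Without the library that stood apart the *rpl9a*∆ difference was -4.48 (adjusted p = 2.5e-06). With TMM scaling and all libraries, none of the 4 differences of AOX2 RNC-mRNA passed, the nearest being 1.98 ± 0.77 in *rpl38*∆ (0.0514). That value was called with library size alone (2.33, adjusted p = 0.0187), with DESeq2 (1.91, adjusted p = 0.0332) and without replicate 2 at 72 h (2.84, adjusted p = 7.75e-05), and was -0.50 without replicate 1. The *rps25*∆ difference was called without either *rpl38*∆ library at 72 h, at 1.89 (0.00195) and 1.88 (0.00209). For this difference 34.5%, 17.7%, 34.0% and 16.0% of genes were called. Averaged over the strains, AOX1 RNC-mRNA fell by 1.44 ± 0.22 between 24 and 72 h (1.1e-05) and AOX2 was -0.19 ± 0.24 (0.497), where 64.8% of genes were called. Without replicate 1 of *rpl38*∆ at 72 h that AOX2 value was -0.707 and was called (adjusted p = 9.72e-05).

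RNC-mRNA relative to mRNA was then tested in a single model of both assays, averaged over the times. Within strains, AOX1 was 0.23 ± 0.22 in wt (adjusted p = 0.330), -0.34 ± 0.22 in *rpl38*∆ (0.163), 0.28 ± 0.22 in *rpl9a*∆ (0.231), -0.46 ± 0.22 in *rps7*∆ (0.0514), with -0.68 ± 0.22 in *rps25*∆ (0.00547; edgeR, Benjamini-Hochberg). AOX2 was -0.35 ± 0.24 in wt (0.178), -0.44 ± 0.24 in *rpl38*∆ (0.0885), -1.19 ± 0.24 in *rpl9a*∆ (3.0e-05), -0.67 ± 0.24 in *rps7*∆ (0.0114), with -1.095 ± 0.24 in *rps25*∆ (1.1e-04). The value in *rpl9a*∆ came from the 72 h libraries, since it was 0.01 over 24 and 48 h alone (adjusted p = 0.965). Of the 5241 genes tested, 78.2%, 73.1%, 77.4%, 77.5% and 76.2% were called in the 5 strains, so that such a call is the rule among genes. Without replicate 1 of *rpl38*∆ RNC-mRNA at 72 h, AOX2 in *rpl38*∆ was -1.23 and was called (adjusted p = 6.7e-10), as was AOX1 (-0.566, adjusted p = 0.024). Without replicate 2 they were -0.158 (0.278) and -0.18 (0.472). AOX2 in wt was called without either of them (-0.35, adjusted p of 0.0102 or lower), and AOX1 in *rps7*∆ without any of several libraries (-0.465 or -0.609, adjusted p of 0.0459 or lower). AOX1 in *rpl9a*∆ was 0.525 and was called (adjusted p = 0.00488) without replicate 1 of RNC-mRNA at 72 h, and -0.216 (0.246) without replicate 2. With each culture as a block shared by its mRNA and RNC-mRNA libraries, which pairs them, AOX2 in *rpl38*∆ (-0.69, adjusted p = 0.0108) and AOX1 in *rps7*∆ (-0.48, adjusted p = 0.0278) were called. Direction and call depended on scaling too, since with library size alone AOX1 was -0.446 in wt (adjusted p = 0.0346) and -0.197 in *rpl9a*∆ (adjusted p = 0.355). On that scale AOX2 in wt (-1.02, adjusted p = 1.7e-04), AOX1 and AOX2 in *rpl38*∆ (-0.738, 9.4e-04, and -0.847, 0.00129) and AOX1 in *rps7*∆ (-0.845, 2.1e-04) were called as well.

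Against wt, the ratio of RNC-mRNA to mRNA passed the test for AOX1 in *rps25*∆, at -0.91 ± 0.31 (adjusted p = 0.0393, edgeR, Benjamini-Hochberg), where 15.8% of genes were called. This call was lost when any of 17 of the 60 libraries was left out, with values from -1.03 to -0.813. AOX1 gave -0.57 ± 0.31 in *rpl38*∆ (0.237), 0.05 ± 0.31 in *rpl9a*∆ (0.945) and -0.70 ± 0.31 in *rps7*∆ (0.115). AOX2 gave -0.09 ± 0.33 in *rpl38*∆ (0.898), -0.84 ± 0.34 in *rpl9a*∆ (0.121), -0.32 ± 0.34 in *rps7*∆ (0.562), with -0.75 ± 0.34 in *rps25*∆ (0.132). In *rpl38*∆, *rpl9a*∆ and *rps7*∆ 11.3%, 7.67% and 17.2% of genes were called. AOX2 in *rpl38*∆ was -0.884 and was called (adjusted p = 0.00116) if replicate 1 of its 72 h RNC-mRNA was left out, and 0.192 (0.491) if replicate 2 was. Without replicate 1 of *rpl9a*∆ RNC-mRNA at 72 h, AOX2 in *rpl9a*∆ was -0.997 and was called (adjusted p = 0.0298), and AOX1 was 0.294, against -0.447 without replicate 2. With either *rpl38*∆ RNC-mRNA library at 72 h left out, AOX2 was called in *rpl9a*∆ (-0.844) and *rps25*∆ (-0.745), with adjusted p of 0.00242 or lower, and with either *rpl9a*∆ one left out AOX1 was called in *rps7*∆ (-0.696, adjusted p of 0.0197 or lower). Over 24 and 48 h alone, AOX2 in *rps25*∆ was -1.16 and was called (adjusted p = 2.6e-05).

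The ratio of the 2 genes summarises their opposite courses. AOX2 reads per 100 AOX1 reads in wt mRNA lay between 1.90 and 2.48. In *rpl38*∆ mRNA the ratio was 2.31 and 2.20 at 24 h, 42.5 and 41.0 at 48 h, and 45.6 and 49.4 at 72 h. In *rpl9a*∆ it was 1.39 and 1.35 at 24 h, 2.45 and 3.59 at 48 h, and 39.3 and 44.8 at 72 h. Both strains thus reached a similar ratio by 72 h from a ratio at 24 h that was close to or below that of wt, *rpl38*∆ already at 48 h. In *rps7*∆ it was 6.18 and 6.07, then 23.4 and 26.7, then 28.6 and 31.5, above wt at each time. In *rps25*∆ it was 3.02 and 3.17, then 8.80 and 9.67, then 2.21 and 1.95, and at 72 h it overlapped the range of wt.

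**Figure D3:**
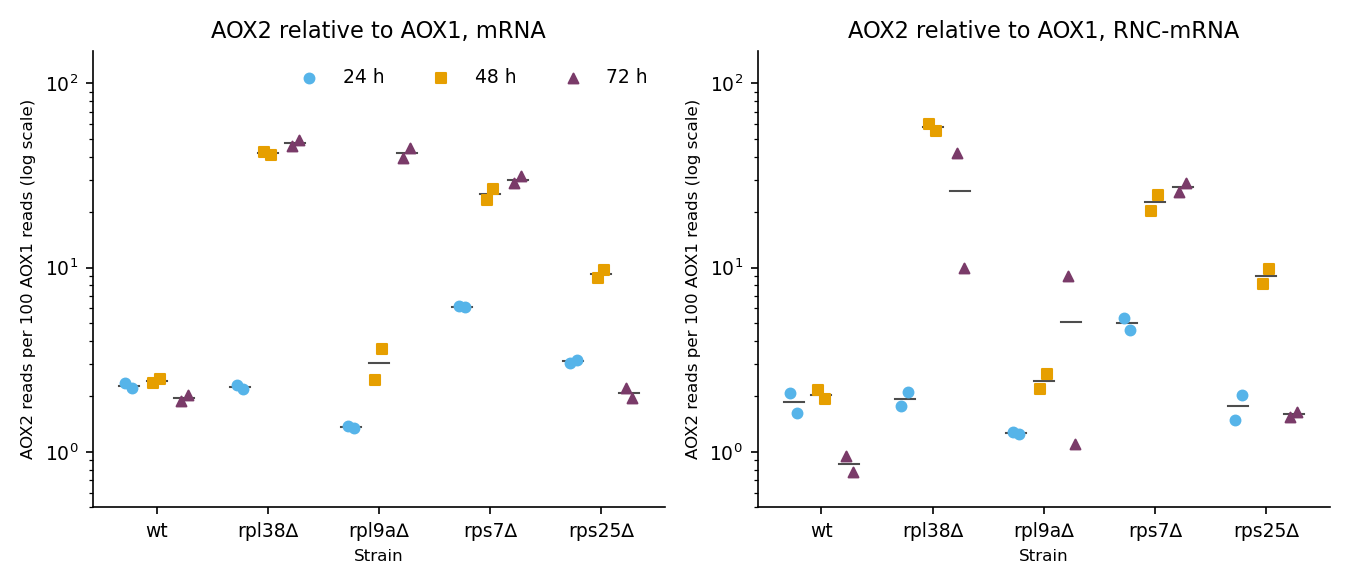
AOX2 reads per 100 AOX1 reads (log scale) in mRNA (left) and RNC-mRNA (right) of each strain at 24 h (circles), 48 h (squares) and 72 h (triangles), with a point for each library and a line for the mean of 2. In wt mRNA the points stay between 1.90 and 2.48, while the *rpl38*∆ mRNA libraries at 48 and 72 h and the *rpl9a*∆ mRNA libraries at 72 h lie between 39.3 and 49.4.

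In RNC-mRNA the ratio in wt was 2.09 and 1.62 at 24 h, 2.16 and 1.93 at 48 h, and 0.947 and 0.779 at 72 h. In *rpl38*∆ it was 1.77 and 2.10 at 24 h, 60.4 and 55.3 at 48 h, and 41.9 and 9.96 at 72 h. In *rpl9a*∆ it was 1.28 and 1.25, then 2.20 and 2.66, then 8.99 and 1.102. The 72 h ratio of *rpl9a*∆ was therefore far below that of its mRNA in both replicates. In *rps7*∆ the values were 5.35 and 4.60, then 20.2 and 24.8, then 25.5 and 28.9, close to those of mRNA. In *rps25*∆ they were 1.48 and 2.04, then 8.12 and 9.79, then 1.55 and 1.65.

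Strains were compared on the log2 ratio by an exact permutation test, two-sided, in which strain labels were exchanged within the times. With 216 arrangements the smallest possible p was 0.00926, and p-values were adjusted over 20 ratio tests. Labels were exchanged at each time on its own, so that the times of a strain counted as independent. The study does not state whether the same cultures were followed over the times. If they were, the p-values of these ratio tests, here and for Phy below, are likely too small. In mRNA the mean difference from wt was 2.90 in *rpl38*∆ (adjusted p = 0.0545), 1.33 in *rpl9a*∆ (0.329), 2.91 in *rps7*∆ (0.0168), with 0.82 in *rps25*∆ (0.0285; exact permutation). In RNC-mRNA it was 3.15 in *rpl38*∆ (0.0285), 0.53 in *rpl9a*∆ (0.595), 3.29 in *rps7*∆ (0.0168), with 0.98 in *rps25*∆ (0.0545; exact permutation). The ratio of *rps7*∆, which was above wt at all 3 times in both assays, reached the smallest p that the design allows. Without *rps25*∆ replicate 1 at 72 h the *rps25*∆ ratio in mRNA no longer passed (0.788, adjusted p = 0.0529), nor did *rpl38*∆ in RNC-mRNA without replicate 2 of wt or of *rpl38*∆ at 24 h (3.09 and 3.11, adjusted p = 0.0529; exact permutation). In *rpl38*∆ and *rpl9a*∆ the times differ too much from each other for an average over times to describe them, the *rpl9a*∆ ratio in mRNA being below wt at 24 h and 21.4-fold above it at 72 h. Between 72 and 24 h, time labels were exchanged within the strains (7776 arrangements). The mean change of the log2 ratio was 2.166 in mRNA (adjusted p = 0.0168) and 1.19 in RNC-mRNA (adjusted p = 0.0545, exact permutation). The strains did not share a direction. In mRNA the 72 h libraries lay wholly above those of 24 h in 3 of 5 strains and wholly below in 2, wt and *rps25*∆. In RNC-mRNA they lay above in 2 strains and below in 1, wt.

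The sum of the 2 genes followed AOX1. In mRNA the sum fell 3.03-fold from 24 to 72 h in *rpl38*∆ and 4.33-fold in *rpl9a*∆, from means of 18507 and 29968 CPM at 24 h. At 72 h it was 1.75-fold and 1.55-fold below that of wt, and in *rps7*∆ 5.07-fold below.

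Phy stands behind the AOX1 promoter, and its reads were set against AOX1 and AOX2 of the same library. In wt mRNA, Phy was 2649 and 2773 CPM at 24 h, 3800 and 3646 CPM at 48 h, and 2803 and 2894 CPM at 72 h. In *rpl38*∆ it was 23334 and 25441 CPM at 24 h, 10799 and 11308 CPM at 48 h, and 10430 and 9172 CPM at 72 h. In *rps7*∆ it was 5445 and 4911 CPM, then 964 and 852 CPM, then 1588 and 1309 CPM. Phy thus fell in *rpl38*∆ and *rps7*∆ when AOX1 did, and peaked in wt at 48 h as AOX1 did.

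Within strains, log2 Phy and log2 AOX1 were correlated over the 6 libraries. In mRNA Pearson's r was 0.933 in wt and, for *rpl38*∆, *rpl9a*∆, *rps7*∆ and *rps25*∆ in turn, 0.996, 0.981, 0.997 and 0.988, with adjusted p of 0.0247 or lower over 20 pairs (exact permutation of the pairings, n = 6). Spearman's rho was 1 in the first 4 strains (adjusted p = 0.00794) and 0.886 in *rps25*∆ (adjusted p = 0.0606). Without the 2 libraries farthest from the median AOX1 level, r was 0.981, 0.856, 0.949, 0.990 and 0.978. In RNC-mRNA r was between 0.969 and 0.999 in the 4 deletion strains (adjusted p of 0.00694 or lower; rho 0.943 to 1, adjusted p of 0.0417 or lower), and between 0.985 and 0.9996 without the 2 farthest libraries. In wt RNC-mRNA r was 0.534 (adjusted p = 0.289, exact permutation, n = 6) and 0.08 without the 2 farthest libraries. Spearman's rho there was 0.371 (adjusted p = 0.523, exact permutation). AOX1 ranged from 6238 to 9636 CPM in wt RNC-mRNA and from 8408 to 13004 CPM in wt mRNA. The 6 libraries of a strain come from 3 times with 2 replicates each and share their host read total as denominator. The permutation exchanged all 6 freely and did not allow for replicates of a time being alike. Its p-values, here and for AOX2 below, are therefore likely too small.

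AOX2 showed no such uniform relation to Phy. In mRNA r was 0.977 in wt, -0.982 in *rpl38*∆, -0.869 in *rpl9a*∆, 0.571 in *rps7*∆, with -0.611 in *rps25*∆, with adjusted p of 0.0417, 0.0727, 0.0417, 0.235 and 0.262 (exact permutation, n = 6), and rho was 0.771, -0.600, -0.886, 0.543 and -0.429, with none past the threshold (adjusted p of 0.0606 or higher). Without the 2 libraries farthest from the median AOX2 level r was 0.518, 0.291, -0.119, -0.952 and 0.948, so that the relation rested on those libraries, and its sign turned in 3 strains. With TMM-scaled values the *rpl9a*∆ relation no longer passed (r = -0.701, adjusted p = 0.186), and that of *rps7*∆ in RNC-mRNA did (r = 0.908, adjusted p = 0.0328; exact permutation, n = 6). In RNC-mRNA r was 0.887 in wt (adjusted p = 0.0417, exact permutation, n = 6; rho 0.886, adjusted p = 0.0606; r = 0.953 without the 2 farthest). In the deletion strains it was -0.134, 0.595, 0.648 and -0.261 in the order above (adjusted p of 0.235 or higher, exact permutation, n = 6; rho 0.0286, 0.486, 0.657 and -0.486, adjusted p of 0.269 or higher), and -0.876, -0.270, -0.319 and -0.551 without the 2 farthest. Over the 15 group means, as a description, r of Phy with AOX1 was 0.733 in mRNA and 0.801 in RNC-mRNA, and with AOX2 0.346 and 0.336.

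**Figure D4:**
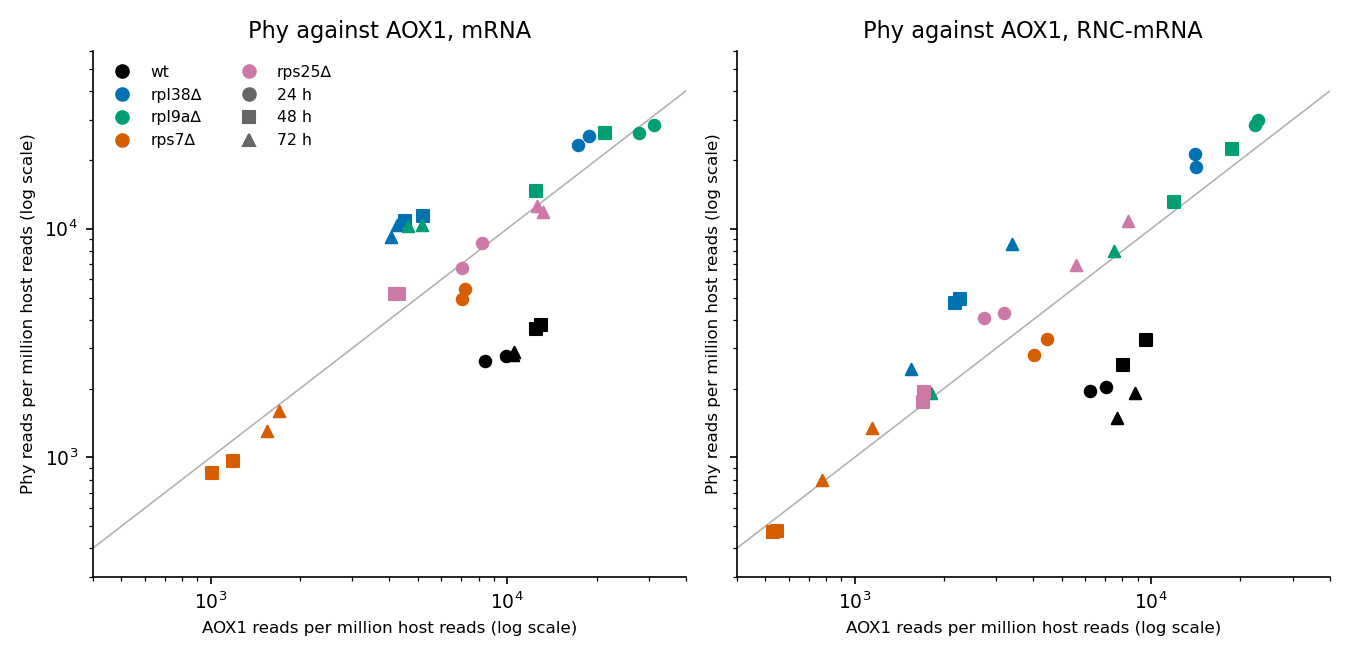
Phy against AOX1, both in CPM on log scales, in mRNA (left) and RNC-mRNA (right). Each point is a library, coloured by strain and shaped by time (24 h circles, 48 h squares, 72 h triangles), and the grey line marks equal reads; the 6 wt libraries lie farthest below that line, at 26.8 to 31.5 Phy reads per 100 AOX1 reads in mRNA.

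The level of Phy for a given AOX1 level differed between wt and every deletion strain. In mRNA wt had 31.5 and 28.0 Phy reads per 100 AOX1 reads at 24 h, 29.2 and 29.3 at 48 h, and 26.8 and 27.4 at 72 h. In *rpl38*∆ there were 135 and 135 at 24 h, 240 and 217 at 48 h, and 246 and 226 at 72 h. In *rpl9a*∆ there were 93.9 and 90.8, then 122 and 117, then 201 and 223. The ratio thus rose in both strains while AOX1 fell. In *rps7*∆ there were 75.7 and 69.5, then 81.4 and 84.3, then 93.2 and 84.8. In *rps25*∆ there were 106 and 96.0, then 124 and 120, then 99.5 and 89.8. No library of a deletion strain came below 69.5 and none of wt above 31.5 in mRNA.

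**Figure D5:**
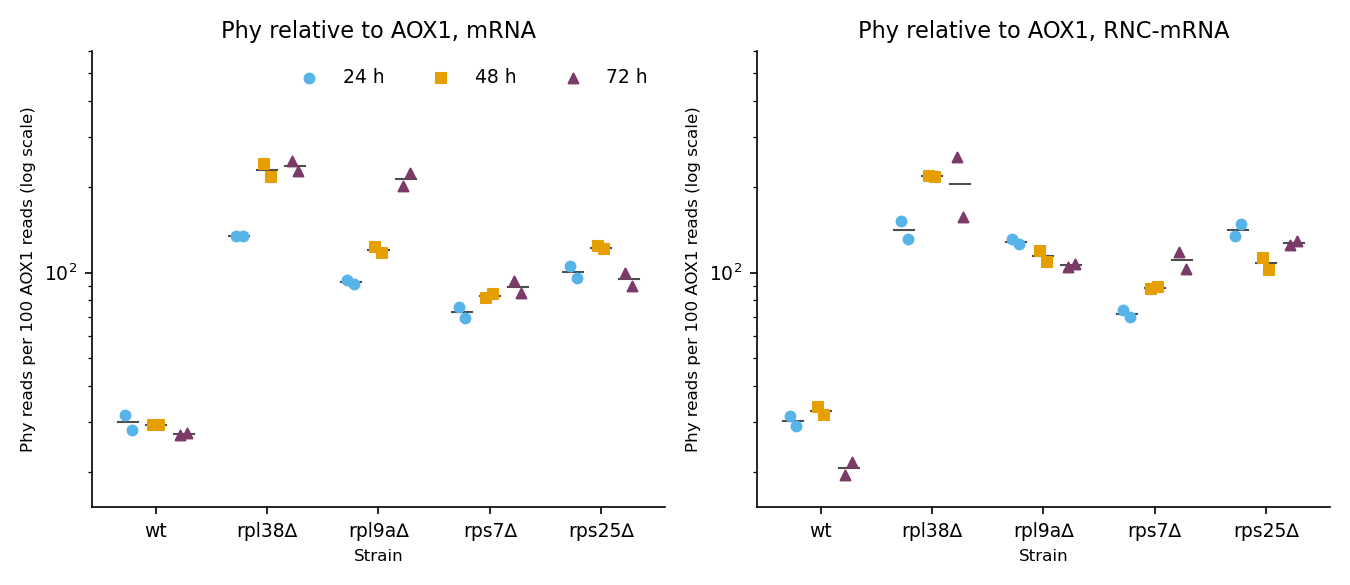
Phy reads per 100 AOX1 reads (log scale) in mRNA (left) and RNC-mRNA (right) of each strain at 24 h (circles), 48 h (squares) and 72 h (triangles), with a point for each library and a line for the mean of 2. All wt mRNA libraries lie between 26.8 and 31.5 and all wt RNC-mRNA libraries between 19.5 and 33.8, below every library of the deletion strains.

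The mean log2 difference from wt in mRNA was 2.75 in *rpl38*∆ (6.75-fold), 2.21 in *rpl9a*∆ (4.63-fold), 1.50 in *rps7*∆ (2.83-fold), with 1.87 in *rps25*∆ (3.67-fold). Each had the smallest p the test allows, 0.00926, and an adjusted p of 0.0168 (exact permutation, two-sided, n = 6 libraries a strain, with the times taken as independent). In RNC-mRNA, wt had between 19.5 and 33.8 Phy reads per 100 AOX1 reads, and the differences from wt were 2.74, 2.09, 1.70 and 2.19 in the same order, with the same p (exact permutation). The lowest value of a deletion strain in RNC-mRNA was 69.6, in *rps7*∆ at 24 h. In *rpl9a*∆ RNC-mRNA at 72 h the replicates had 105 and 107 Phy reads per 100 AOX1 reads, although their AOX1 levels were 1815 and 7472 CPM. Between 72 and 24 h, the mean change over the strains was 0.42 in mRNA (adjusted p = 0.0305) and 0.03 in RNC-mRNA (adjusted p = 0.858, exact permutation). In mRNA the 72 h libraries lay wholly above those of 24 h in 3 of 5 strains and wholly below in 1, wt. In RNC-mRNA they lay above in 2 strains and below in 3. The study reported a single Phy copy in each of these strains by quantitative real-time PCR. Its relative PCR signal was higher in *rpl38*∆ and *rpl9a*∆ than in wt, and near that of wt in *rps7*∆ and *rps25*∆. Copy number was not analysed here, and its relation to the read ratios was not tested.

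The order of the groups was read with its overlaps. By the mean of 2 libraries, AOX1 mRNA was highest in *rpl9a*∆ at 24 h, *rpl38*∆ at 24 h and *rpl9a*∆ at 48 h, and lowest in *rps7*∆ at 48 h, *rps7*∆ at 72 h and *rpl38*∆ at 72 h. AOX2 mRNA was highest in *rpl9a*∆ at 72 h (2043 CPM), *rpl38*∆ at 48 h (2028 CPM) and *rpl38*∆ at 72 h (1966 CPM), 3 groups whose libraries overlapped. The next group, *rps7*∆ at 72 h, was at 486 CPM. Of the 14 pairs of neighbours in the order, the libraries overlapped in 6 for AOX1 mRNA and 7 for AOX2 mRNA, and in 8 and 11 in RNC-mRNA.

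The genes whose pattern was most like that of each member were found by Pearson correlation of log2 TMM-scaled CPM over the 15 group means. For AOX1 mRNA they were Pipas_chr3_0877 (r = 0.953), Pipas_chr3_1091 (0.950) and Pipas_chr3_1115 (0.949), among 5228 genes. Phy came at place 193 (0.801) and AOX2 at place 2383 (0.02). For AOX2 mRNA they were Pipas_chr2-2_0392 (0.960), Pipas_chr3_0751 (0.912) and Pipas_chr1-4_0488 (0.905). In RNC-mRNA the genes most like AOX1 were Pipas_chr2-1_0376 (0.912), Pipas_chr2-1_0437 (0.908) and Pipas_chr1-4_0049 (0.906), and those most like AOX2 were Pipas_chr2-2_0392 (0.857), Pipas_chr2-1_0501 (0.832) and Pipas_chr2-1_0461 (0.798). Pipas_chr2-2_0392 was thus the nearest gene to AOX2 in both assays, while the genes nearest to AOX1 differed between them. The sources used here annotate none of these IDs.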

How the data were processed

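The authors deposited, for each library, a table of 5319 host genes with the gene length, the read count and the RPKM. The authors sequenced polyA+ RNA and counted mapped reads per gene, as deposited counts; the submitters' processing notes name bcl2fastq 2.17, and the sources used here name no aligner, counter or genome build. The deposited RPKM values are counts scaled by gene length and by the reads on genes (recomputed from the counts within 0.000117%) and were not tested. Phy read counts came from a deposited table of the whole series, whose Phy RPKM and TR (ratio) columns were not used. No per-sample column was left without a sample (0 columns).

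AOX1, AOX2 and Phy counts were divided by host gene reads (CPM). Counts were tested with the quasi-likelihood test of edgeR 4.0.16 (R 4.3.3), with TMM scaling, Phy as 1 more gene and a filter that kept genes if 2 or more libraries had more than 10 reads. All 15 groups of an assay shared a fit, 60 libraries of both assays another, and p-values were adjusted over all genes by Benjamini-Hochberg with a threshold of 0.05. Fold changes are given with standard errors derived from the test, as the absolute log2 fold change divided by the square root of its F statistic. Log2 ratios of reads were compared by exact permutation tests in scipy 1.17.1 and numpy 2.4.6. Alternatives were other scalings and filters, DESeq2 1.42.0, a replicate block, 2-strain fits, and leaving out each library. Per the study's methods each sample was split into aliquots for both assays, so that the model of both assays was also fitted with the culture (strain, time and replicate number) as a block, although same-numbered deviations correlated above 0.1 in 4 of 15 groups. The scripts were tested on simulated data.

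The study's methods describe 2 biological replicates a group, so that each group mean rests on 2 libraries. Depth was 2970406 to 15476958 host reads in mRNA and 1508702 to 13532265 in RNC-mRNA. The genes named are AOX1, AOX2, Phy, the deleted genes and, per assay, the 3 genes most correlated with each member over the 15 group means of log2(TMM-scaled CPM + 0.5). The members and lists were chosen with earlier results of these data known. None of the gene IDs matched the 5305 genes of the reference table (0 matched), so that other methanol-use genes are not named and no sequence is shown.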

Additional observations from a re-analysis of the deposited data

Results flagged for a closer look

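The change of AOX1 mRNA from 24 to 72 h differed from that of wt by -2.52 on the log2 scale in *rpl38*∆, by -3.08 in *rpl9a*∆, by -2.56 in *rps7*∆ and by 0.787 in *rps25*∆, each called by the edgeR test of the difference itself. The change of AOX2 mRNA differed from wt by 2.096 in *rpl38*∆, 2.07 in *rpl9a*∆ and 0.432 in *rps25*∆. AOX1 and AOX2 thus differed from wt in opposite directions in the 2 strains lacking a large-subunit protein. Neither *rps25*∆ value was called with library size alone.

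In RNC-mRNA the change of AOX1 differed from wt by -3.18 in *rpl38*∆, -2.93 in *rpl9a*∆ and -3.11 in *rps7*∆. The ratio of RNC-mRNA to mRNA of AOX1 differed from wt by -0.911 in *rps25*∆, a call that was lost without any of 17 of the 60 libraries.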

How the results depend on the processing

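Of 162 results of the edgeR fits, direction and call were kept in 162 with no filter on low counts, in 161 with more than 10 reads required in every library, in 160 with DESeq2's size factors, in 155 with the DESeq2 Wald test and in 130 with library size alone. With library size alone, and with library size without AOX1, AOX2 and Phy reads, AOX2 values near 0 changed sign. In mRNA these gave 0.167 and 0.172 for *rps25*∆ against wt at 24 h, 0.273 and 0.246 for *rpl9a*∆ at 48 against 24 h, 0.160 and 0.147 for *rps7*∆ at 72 against 24 h, and 0.179 and 0.163 for that change minus wt. The average AOX2 difference of *rps25*∆ from wt in mRNA was called, at 0.294 and 0.298. In RNC-mRNA they gave 0.692 and 0.682 for AOX2 of *rps7*∆ on average, which was then called, 0.365 and 0.339 for *rpl9a*∆ at 48 against 24 h, 0.287 and 0.280 for *rps7*∆ at 72 against 24 h, and 0.195 and 0.178 for 72 against 24 h over the strains. For RNC-mRNA relative to mRNA they gave -0.446 and -0.452 for AOX1 in wt, -0.197 and -0.204 in *rpl9a*∆, and 0.176 and 0.172 for AOX2 of *rpl38*∆ against wt. AOX1 of *rps25*∆ against wt was -0.745 without AOX1, AOX2 and Phy reads and was no longer called (adjusted p = 0.0509, edgeR). With DESeq2's size factors AOX2 RNC-mRNA of *rpl9a*∆ averaged 0.844 (adjusted p = 0.052).

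Averages over 24 and 48 h only, chosen after seeing the data, were -0.237 for AOX1 mRNA of *rpl38*∆, -0.0486 and -0.000219 for AOX2 mRNA of *rps7*∆ and *rps25*∆, 1.19 for AOX1 RNC-mRNA of *rpl9a*∆, and -0.617 and -1.15 for AOX2 RNC-mRNA of *rps7*∆ and *rps25*∆. For RNC-mRNA relative to mRNA they were 0.00631 for AOX2 in *rpl9a*∆, 0.104 for it against wt, -0.634 and -0.586 for AOX1 and AOX2 of *rps7*∆, and -1.16 for AOX2 of *rps25*∆. In fits of the 2 strains only, AOX1 mRNA of *rpl9a*∆ averaged 0.412 and was lost, and AOX2 RNC-mRNA of *rps25*∆, at -0.673, was called. Such fits also called RNC-mRNA relative to mRNA for AOX1 in *rpl38*∆ (-0.544) and *rps7*∆ (-0.688), and for AOX2 in *rpl9a*∆ (-0.847), *rps7*∆ (-0.313) and *rps25*∆ (-0.808). The causes were not tested.

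Same-numbered deviations of a deletion strain and wt correlated above 0.1 in 3 of 12 mRNA and 0 of 12 RNC-mRNA comparisons. The 3 were all at 24 h, in *rpl38*∆ (0.123), *rps7*∆ (0.12) and *rps25*∆ (0.187). With 2 replicates a group, such correlations cannot settle whether replicate numbers pair the strains with wt. With the replicate block, AOX2 RNC-mRNA of *rpl9a*∆ averaged 0.847 (adjusted p = 0.0516, edgeR), and AOX1 of *rpl9a*∆ in RNC-mRNA relative to mRNA against wt was -0.0599 with the culture as the block. The latter pairing also called AOX2 in *rpl38*∆ (-0.69) and AOX1 in *rps7*∆ (-0.48) and changed no other call of RNC-mRNA relative to mRNA. The block leaves fewer arrangements for the ratio tests, so that adjusted p was 0.0568 or 0.0893 (exact permutation). The AOX2 to AOX1 ratios were 2.91, 0.818 and 2.166 in mRNA (*rps7*∆, *rps25*∆ and 72 against 24 h) and 3.15 and 3.29 in RNC-mRNA (*rpl38*∆ and *rps7*∆). The Phy to AOX1 ratios under the block were 2.75, 2.21, 1.50, 1.87 and 0.416 (72 against 24 h) in mRNA and 2.74, 2.09, 1.70 and 2.19 in RNC-mRNA.

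Leaving out 1 library at a time gave averages against wt from -0.0548 to 0.705 for AOX1 RNC-mRNA of *rpl9a*∆, 0.716 to 0.966 for AOX2 of *rpl9a*∆ and -0.775 to -0.524 for AOX2 of *rps25*∆, and -0.707 to -0.0197 for AOX2 at 72 against 24 h over the strains. For RNC-mRNA relative to mRNA against wt the ranges were -0.884 to 0.192 (AOX2 *rpl38*∆), -0.447 to 0.294 (AOX1 *rpl9a*∆), -0.997 to -0.728 (AOX2 *rpl9a*∆), -0.840 to -0.585 (AOX1 *rps7*∆), -1.03 to -0.813 (AOX1 *rps25*∆) and -0.887 to -0.637 (AOX2 *rps25*∆), and within *rpl9a*∆ -0.216 to 0.525 for AOX1. AOX2 to AOX1 ratios ranged from 2.88 to 2.92 (*rpl38*∆) and 0.788 to 0.848 (*rps25*∆) in mRNA, and from 2.81 to 3.50 (*rpl38*∆), 0.903 to 1.06 (*rps25*∆) and 0.887 to 1.49 (72 against 24 h) in RNC-mRNA, and the Phy to AOX1 ratio at 72 against 24 h in RNC-mRNA from -0.0424 to 0.0971. Signs also turned for AOX1 mRNA of *rpl9a*∆ at 48 h (-0.185 to 0.745), wt AOX1 mRNA at 72 against 24 h (-0.0903 to 0.119), AOX2 mRNA of *rpl38*∆ at 72 against 48 h (-0.119 to 0.0410) and of *rps7*∆ at 72 against 24 h minus wt (-0.120 to 0.00737). In RNC-mRNA they turned for AOX1 at 72 against 48 h in wt (-0.223 to 0.122) and *rpl38*∆ (-0.301 to 0.896), and for AOX2 of *rps25*∆ against wt at 72 h (-0.105 to 0.649) and at 72 against 48 h (-0.754 to 0.000905). AOX2 RNC-mRNA of *rpl38*∆ ranged from -1.37 to 1.96 at 72 against 24 h, from -2.84 to 0.431 at 72 against 48 h, and from -0.496 to 2.84 for 72 against 24 h minus wt.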
